A study of Homo sapiens with 18 samples.

Results

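Undifferentiated SH-SY5Y cells carrying the C14R form of ZNHIT3 were compared with the same cells carrying a deletion form, across all gene symbols whose FPKM averaged 1 or more in the 6 libraries compared. FPKM is the number of fragments of a gene scaled to its transcript length and to the sequenced total. The rule kept 13424 of the 26372 symbols in the deposited table. It used the level of a gene and not its difference between the groups.

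SH-SY5Y is an established human neuroblastoma line of sympathetic lineage. Every group received a lentiviral construct, made per the labels from the FUGW plasmid, so the cells of both groups and of the wild-type (WT) control were all infected. FUGW in its original form drives its insert from the ubiquitin C promoter in all cell types. The labels give the C14R libraries the treatment ZNHIT3-C14R, and the deletion libraries, titled Depleted, ZNHIT3-∆251-254, 251-255 and 251-256 in replicates 1, 2 and 3, whereas the design text names 251-254 alone. Nothing in the labels says that the cells' own ZNHIT3 was removed, so each ZNHIT3 value can hold RNA of the cells' gene and of the construct. Day 0 is before and day 18 after neuronal differentiation with retinoic acid, BDNF, KCl and dibutyryl cyclic AMP. The day 0 WT libraries are given for reference, and each group has 3 libraries. The labels do not say whether replicates came from separate cultures, so p-values measure the spread between these libraries, which may be technical.

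Small nucleolar RNAs (snoRNAs) guide the modification and cleavage of ribosomal RNA inside protein particles called snoRNPs. The particles of the box C/D class hold NOP56, NOP58, SNU13 and the methyltransferase fibrillarin, and are put together by NUFIP1, the R2TP complex with the ATPases RUVBL1 and RUVBL2, the chaperone HSP90 and ZNHIT3, a small HIT zinc-finger protein that binds NUFIP1. Neuroblastoma lines are known for a noradrenergic state, with HAND2 and GATA3, and a mesenchymal state rich in vimentin, fibronectin and actin stress fibre genes.

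The coding sequence of ZNHIT3 is shown first because the groups are defined by it. The following stretches, in GRCh38, were read from the GENCODE release 29 transcript with 155 codons in 5 exons. In the first, coding bases 28 to 57 in exon 1, the capitals mark codon 14, the residue that the C14R label names, at chr17:36486739-36486741 on the plus strand. In the second, from exon 4, the capitals mark coding bases 251 to 254, at chr17:36493971-36493974, if the numbers of the deletion label count coding bases. On that reading the deletion begins in codon 84 and removes 4 bases. An in-frame stop then follows after 90 codons in all, counted from the start codon.
ZNHIT3 codon 14: gtctgcgtgatcTGCttggagaagcccaaa
ZNHIT3 coding bases 251 to 254: gtgatgaggaagAAGAcagagtttctttgc

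The 6 libraries were alike over most genes. Pearson correlations of log2(FPKM + 1) lay between 0.9905 and 0.9939 within a group and between 0.9893 and 0.9921 across the groups. Relative depth, read from the smallest steps in the values, was 88.8%, 100% and 83.8% of the deepest day 0 library in C14R replicates 1, 2 and 3, and 92%, 69.9% and 93.2% in the deletion replicates. A single small RNA, SNORD3A, took 52.9%, 7.55% and 57.3% of the FPKM sum in the C14R libraries and 51.5%, 6.87% and 18.6% in the deletion libraries, which overlapped, while the upper quartile of all FPKM stayed between 10.89 and 11.05. The noradrenergic markers HAND2 (273 to 288 FPKM) and GATA3 (95.4 to 103) were high in all 6 libraries. So were the mesenchymal markers VIM (528 to 652), COL3A1 (188 to 210), TWIST1 (159 to 171) and FN1 (88.5 to 121). Other mesenchymal markers were low, such as PRRX1 (mean of 1.86) and COL1A2 (0.657). The dopamine-synthesis enzyme TH was near 0, with at most 0.0781 FPKM, as were the Schwann cell marker SOX10 and GFAP (means of 0.324 and 0.0911) and the blood markers PTPRC (at most 0.12) and HBB (0).

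Between C14R and deletion cells, 8 genes changed at an adjusted p under 0.05 (limma, Benjamini-Hochberg over all 13424 genes), which is 0.0596% of those tested. ZNHIT3, STK19, FSTL5 and FGF14-AS2 were higher in C14R, and ACTG2, NPY, VIM and APOM were lower. Each direction held 0.0298% of genes. Differences were small: 95.4% of genes differed by less than 0.25 on the log2(FPKM + 1) scale, on which all differences below are given, and the median over all genes was -0.0006. On that scale low genes are understated.

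**Figure D1:**
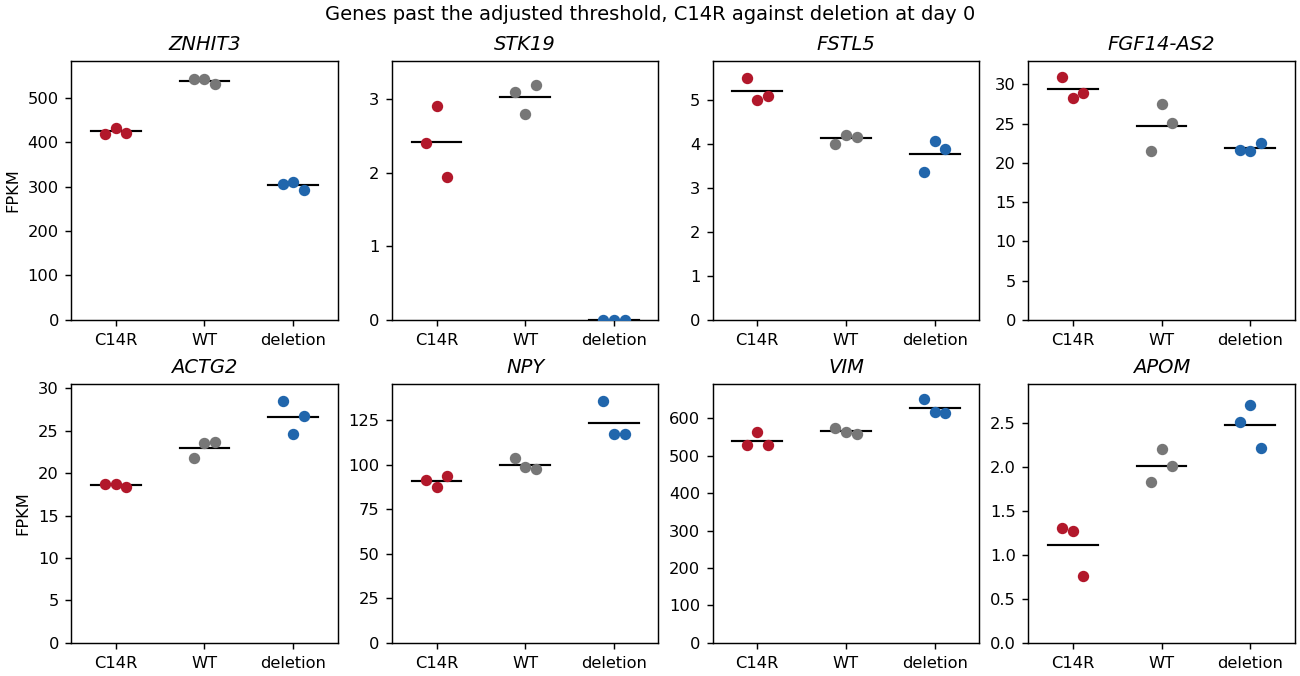
FPKM of the 8 genes with an adjusted p under 0.05 in C14R against deletion cells at day 0, 1 panel per gene with its own axis from 0. Points are libraries (replicates 1 to 3 from left to right) of the C14R, WT and deletion groups, and bars are means. In every panel the C14R and deletion points do not overlap.

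ZNHIT3 itself read 418.9, 432 and 420.6 FPKM in the C14R libraries and 305.5, 310.1 and 292 in the deletion libraries, against 542, 541 and 530.6 with the WT construct. All C14R libraries lay above all deletion libraries and below all WT libraries. C14R cells therefore had 1.40 times the ZNHIT3 level of deletion cells, a log2 difference of 0.49 (SE 0.07, adjusted p = 0.0058, limma). An exact two-sided permutation test of the 3 against 3 libraries gave p = 0.1, the smallest its 20 relabelings can give. The limma call was lost without C14R replicate 3 (adjusted p = 0.062) and without deletion replicate 3 (0.054). The 8 tested genes next to ZNHIT3 on chromosome 17 had 0 members at an unadjusted p under 0.05, with a median log2 difference of 0.03.

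STK19, a gene at chr6:31971091-31982821 named as a kinase, read 2.398, 2.902 and 1.949 FPKM in C14R and was listed at 0 in each deletion library, with 3.091, 2.799 and 3.191 in WT. It was the one gene of the 8 that was present in 1 group and listed at 0 in the other. The log2 difference was 1.76 (SE 0.11, adjusted p = 3.5e-07), and no fold is given against values listed at 0. STK19 came into the test only through its C14R libraries (means of 2.416 and 0 FPKM), so a difference was built into its being tested, and its p is given as a description. At day 18 the picture was the reverse, with 0 in all C14R libraries and 3.83, 3.243 and 3.653 in the deletion libraries. STK19 overlaps C4A and DXO, and how fragments were divided between them was not stated. Of its 6 tested neighbours, 0 had an unadjusted p under 0.05, DXO among them with a log2 difference of -0.14 (SE 0.12).

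The other higher genes act in neurons or lie beside a gene that does. FSTL5, a secreted follistatin-like protein of the brain, read 5.491, 4.989 and 5.088 FPKM in C14R and 3.367, 4.058 and 3.873 in deletion cells, with 4.004, 4.208 and 4.159 in WT. The C14R libraries were above all others, and the WT libraries overlapped the deletion libraries through deletion replicate 2. Its log2 difference was 0.38 (SE 0.06, adjusted p = 0.028), 1.38 times the deletion level. FGF14-AS2, a noncoding RNA antisense to FGF14, a regulator of voltage-gated sodium channels, read 30.91, 28.27 and 28.83 FPKM against 21.68, 21.5 and 22.58. Its log2 difference was 0.40 (SE 0.07, adjusted p = 0.028), and without a stated use of strand its reads cannot be told from those of FGF14, which stood at 29.6 FPKM in C14R and 25.6 in deletion cells (0.20, SE 0.07, adjusted p = 0.35).

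ACTG2, the smooth muscle gamma actin at chr2:73892314-73919865, had the lowest p among the genes lower in C14R. It read 18.75, 18.72 and 18.41 FPKM in C14R, 28.52, 24.57 and 26.76 in deletion cells and 21.79, 23.49 and 23.66 in WT. The 3 groups did not overlap, with WT in the middle. C14R cells held 70% of the deletion level (log2 difference -0.49, SE 0.07, adjusted p = 0.0058). With a pseudocount of 0.1 the ACTG2 call was lost (-0.51, SE 0.21, adjusted p = 0.46).

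VIM, vimentin, the intermediate filament protein of mesenchymal cells, read 528.5, 562.5 and 528.4 FPKM in C14R and 651.6, 616.9 and 612.8 in deletion cells. It was the most abundant of the 8 genes and changed least, with 86.1% of the deletion level in C14R (log2 difference -0.22, SE 0.04, adjusted p = 0.038). After quantile normalization the VIM difference was -0.12 (adjusted p = 0.34), and its call was also lost with small RNA genes left out (0.15), without a variance trend (0.10) and with median-of-ratios scaling (0.052). NPY, neuropeptide Y, a cotransmitter of sympathetic neurons, read 91.79, 87.47 and 93.78 FPKM in C14R and 136, 117.1 and 117.6 in deletion cells, with 104, 98.71 and 97.47 in WT. C14R held 73.6% of the deletion level (log2 difference -0.43, SE 0.07, adjusted p = 0.031). APOM, an apolipoprotein that carries sphingosine-1-phosphate, read 1.304, 1.273 and 0.7665 FPKM in C14R and 2.513, 2.71 and 2.223 in deletion cells, 44.9% of the deletion level (log2 difference -0.73, SE 0.12, adjusted p = 0.028). APOM overlaps BAG6.

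The WT mean lay between the C14R and deletion means in 6 of the 8 genes. Picking genes by their C14R minus deletion difference favours that order, and its share over all genes was not counted. The exceptions were ZNHIT3 and STK19, both highest in WT. Against WT separately, 0 genes passed in C14R cells (383 at an unadjusted p under 0.05, 2.85%) and 3 passed in deletion cells (0.0223%, with 851 at an unadjusted p under 0.05, 6.34%). These comparisons share the WT libraries, and for ACTG2 the log2 difference from WT was -0.29 in C14R and 0.20 in deletion cells, both with SE 0.07.

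Most of these calls rest on having all 6 libraries, STK19 aside. ACTG2 was lost without C14R replicate 3 (0.069), deletion replicate 1 (0.068) or deletion replicate 3 (0.054), and APOM without C14R replicate 3 (0.10) or deletion replicate 1 (0.15), 2 (0.16) or 3 (0.054). FSTL5 was lost without C14R replicate 1 (0.15) or 3 (0.087) or deletion replicate 1 (0.16) or 3 (0.063). FGF14-AS2 passed only without C14R replicate 2 (0.048), and was lost without C14R replicate 1 (0.16) or 3 (0.087) or deletion replicate 1 (0.16), 2 (0.16) or 3 (0.063). VIM likewise passed only without C14R replicate 2 (0.036), and was lost without C14R replicate 1 (0.17) or 3 (0.26) or deletion replicate 1 (0.26), 2 (0.16) or 3 (0.07). NPY was lost without any of the 6, from 0.063 without deletion replicate 3 to 0.25 without deletion replicate 1. No sign changed.

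**Figure D2:**
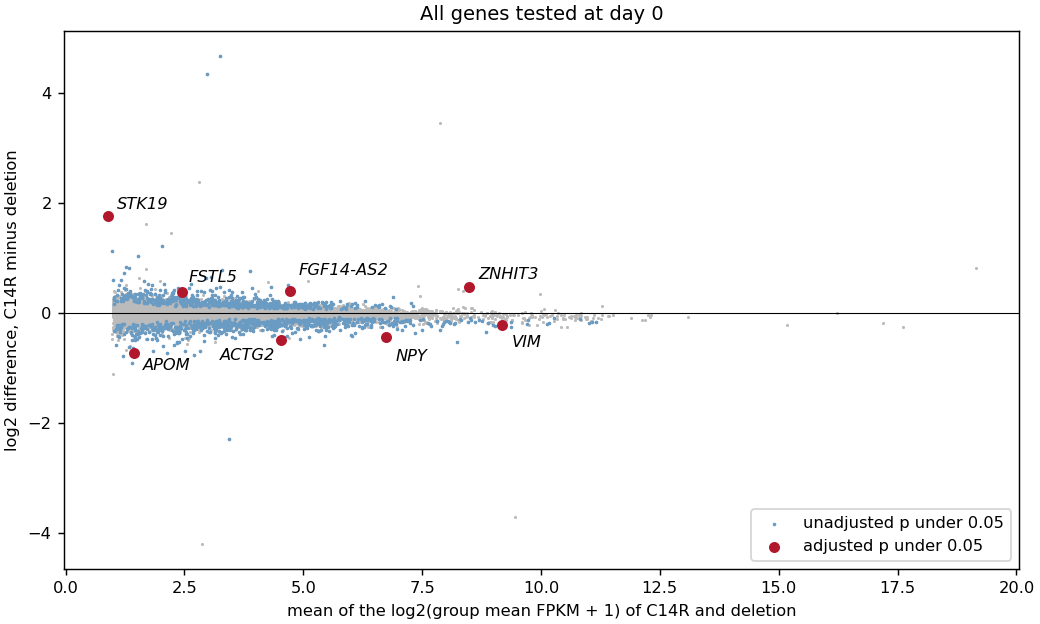
Log2 difference, C14R minus deletion, of each of the 13424 genes tested (vertical axis) against their mean log2 level (horizontal axis). Large red points are the 8 genes with an adjusted p under 0.05 and blue points are the 1355 with an unadjusted p under 0.05. The few points beyond 2 in size are small RNAs listed at 0 in some libraries.

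Of the 14 genes that differed by at least 1 in size, only STK19 passed. The largest differences, looked up after the values were seen, belonged to variant U1 small nuclear RNA genes, whose near-identical copies the counting could split. RNVU1-6 read 102.6, 162.7 and 0 FPKM in C14R and 0 in each deletion library, but also 0, 0 and 105.2 in WT, so the WT libraries themselves ran from 0 to 105.2 (log2 difference 4.68, SE 1.59, adjusted p = 0.34). It too came into the test only through its C14R libraries.

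A wider set of genes had an unadjusted p under 0.05: 1355 genes, or 10.1%, with 634 higher (4.72%) and 721 lower (5.37%) in C14R. The C14R and deletion libraries did not overlap in 2881 genes, 21.5% of those tested, 10.5% higher and 10.9% lower. The next 16 genes were taken by smallest p among those with separated libraries, alternately from each direction, and are given as values, so that their groups do not overlap by choice. None passed the adjusted test. The WT mean lay between the other means in 16 of 16, an order that picking genes for separated C14R and deletion values favours.

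Among those higher in C14R, the transcription factor TSHZ3 read 8.648, 8.311 and 7.654 FPKM against 6.991, 6.558 and 6.698 in deletion cells (log2 difference 0.25, SE 0.05, adjusted p = 0.12). The synaptic adhesion receptor ADGRB3 read 13.43, 12.38 and 13.65 against 10.2, 10.8 and 10.8 (0.29, SE 0.06, adjusted p = 0.16). TSHZ3 in the WT libraries was at 7.135 to 7.652, below all C14R libraries and above all deletion libraries. C2orf88 (0.37), DPY19L2 (0.36) and the noncoding RNAs LOC284825 (0.47) and TUSC7 (0.45) showed differences of like size. The largest, in PRR4 (1.22, SE 0.27) and the read-through transcript CCDC169-SOHLH2 (1.13, SE 0.25), were in genes that overlap others. CCDC169-SOHLH2 came into the test only through its C14R libraries (means of 1.937 and 0.3352 FPKM), so a difference was built into its being tested.

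Among those lower in C14R, TFPI2, a secreted inhibitor of serine proteases in the matrix, read 53.65, 54.7 and 53.53 FPKM against 61.57, 63.43 and 60.42 in deletion cells (log2 difference -0.19, SE 0.04, adjusted p = 0.065). BOLA3, which serves iron-sulfur cluster assembly in mitochondria, read 22.66, 28.16 and 24.24 against 35.68, 32.97 and 36.57 (-0.48, SE 0.09, adjusted p = 0.065). BOLA3 spread more within C14R than TFPI2 did. The membrane-binding annexin ANXA2 (-0.30, adjusted p = 0.092), the complement inhibitor CD59 (-0.22, 0.10), COMMD1 (-0.44, 0.11), SERPINB7 (-0.32, 0.14), the actin crosslinker ACTN4 (-0.30, 0.14) and SPATA33 (-0.41, 0.16) followed.

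Genes of the actin cytoskeleton were lower in C14R as a group. This list was drawn up after ACTG2 and ACTN4 had been seen, so its direction is not independent evidence. Its 33 tested members (35 in the table) were all below 0, where 49.8% of all genes tested were above 0. At an unadjusted p under 0.05, 24 were lower and 0 higher, against 5.37% of all genes lower. In 27 the libraries did not overlap, against 10.9% of all genes lower without overlap. The median log2 difference was -0.17. ACTG2 alone passed the adjusted test. In RNA from whole cultures, fewer cells of a type and less RNA per cell cannot be told apart, and the mesenchymal markers described below were lower beside this list. Their part in the result was not tested.

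Within the list, the myosin heavy chain MYH9 read 64.44, 68.51 and 63.96 FPKM in C14R and 83.76, 75.75 and 73.08 in deletion cells (log2 difference -0.24, SE 0.06, adjusted p = 0.16). The light chain MYL6 read 465.9, 469.2 and 465.5 against 562.4, 549.4 and 521.2 (-0.22, SE 0.05, adjusted p = 0.16). Both genes were highest in deletion replicate 1. The most abundant member, ACTB, read 1992, 2160 and 1986 against 2431, 2224 and 2203 (-0.16, SE 0.07).

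Deletion replicate 1 stood highest in the whole list and C14R replicate 2 stood nearest to the deletion libraries. Relative to the mean of the 9 day 0 libraries, the median member stood at -0.11, -0.03 and -0.10 in C14R, at 0.01, 0.00 and -0.06 in WT and at 0.17, 0.08 and 0.04 in deletion libraries. The C14R and deletion libraries did not overlap, and WT replicate 3 lay within the C14R range. Without deletion replicate 1, 14 members kept an unadjusted p under 0.05, and the count was 18 to 25 without any other single library. With single libraries left out, 3.49% to 5.89% of all genes were lower at that p. The day 18 median was -0.02.

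**Figure D3:**
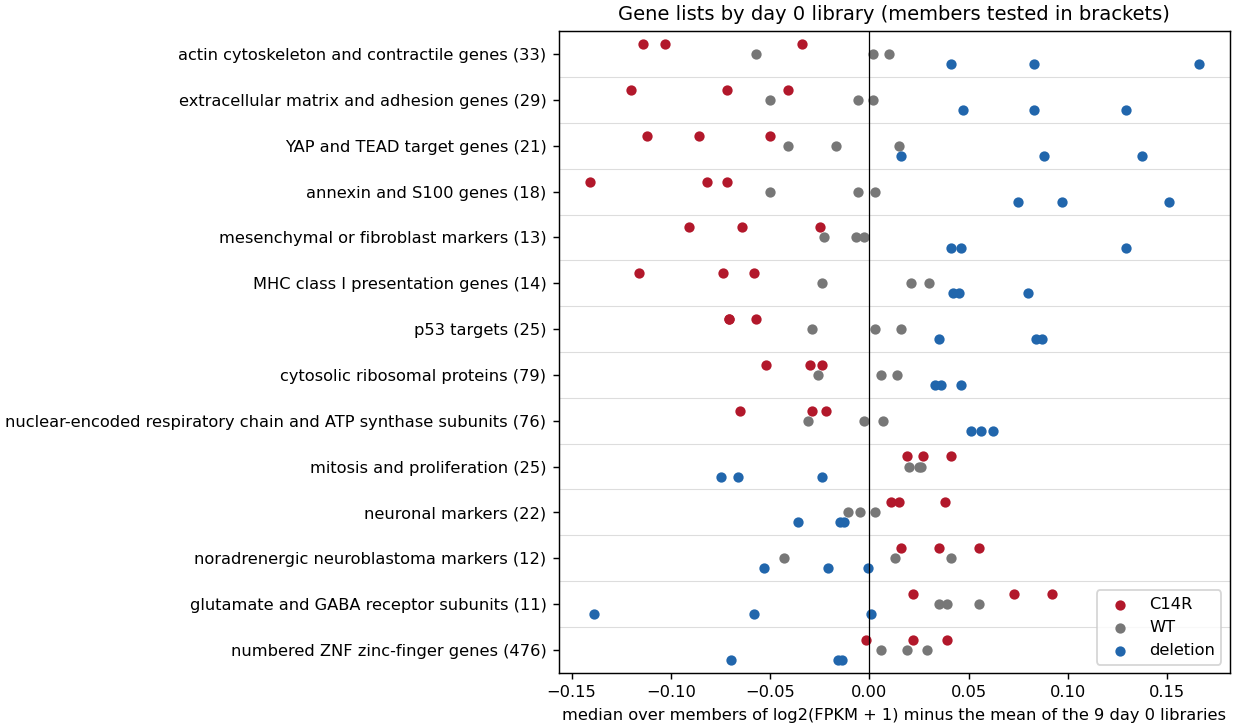
Median over the members of a gene list of log2(FPKM + 1) minus the mean of the 9 day 0 libraries (horizontal axis), 1 point per library, with C14R in red, WT in grey and deletion in blue. C14R and deletion points do not overlap in any list drawn, but the lists drawn are a choice. They overlap in others, among them the box C/D core, the assembly factors, ribosome biogenesis, heat shock and interferon response genes. The actin, matrix, annexin, p53 and ribosomal protein lists have deletion on the right, and the mitosis, neuronal and receptor lists have it on the left.

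Contractile genes are known targets of serum response factor, which binds the CArG box. The 250 bases before the RefSeq start site (GRCh38.p14) were searched for it on both strands. It was found in 5 of 29 contractile promoters with a sequence (17.2%), in 0.896% of the 9931 promoters of tested genes and in 1.14% of all 27305 promoters. As the list is made of a class known for this box, a high share was set by its choice. Its part in the difference was not tested. Among all genes at an unadjusted p under 0.05, the box was in 15 of 569 promoters of those lower in C14R (2.64%), ACTG2 among them. In those higher it was in 2 of 459 (0.436%). These sets rest on the same differences, and the contractile genes were not taken out of them. The contrast is therefore no separate test of the box. The box was found in 0 of 25 promoters of the matrix list and 0 of 15 of the YAP and TEAD list described below, whose medians were of like size. The TEAD motif GGAATG, searched in the same way, was in 9.28% of promoters of tested genes and 11.9% of all. It was in 5 of 29 contractile (17.2%), 6 of 25 matrix (24%) and 5 of 15 YAP and TEAD promoters (33.3%). As the YAP and TEAD list is made of known targets, a high share there was favoured by its choice. The windows below, 30 bases on the strand of the gene, show each match in capitals to let the matches be compared. A match is a description and not a shown site of binding. They lie at chr2:73892888-73892917 and chr2:73892925-73892954 (ACTG2, plus strand), chr17:81512874-81512903 (ACTG1, minus strand), chr19:1026509-1026538 (CNN2, plus strand), chr19:16067355-16067384 (TPM4, plus strand) and chrX:154374709-154374738 (FLNA, minus strand). ACTG2 had 2 matches.
ACTG2 first: gaaaaaaccaCCTTATATGGtaatattgct
ACTG2 second: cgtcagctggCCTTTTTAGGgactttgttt
ACTG1: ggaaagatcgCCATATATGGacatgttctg
CNN2: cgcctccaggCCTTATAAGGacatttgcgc
TPM4: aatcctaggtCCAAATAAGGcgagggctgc
FLNA: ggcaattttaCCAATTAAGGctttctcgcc

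Matrix and adhesion genes, listed after their values were seen, showed the same order of groups. Of 29 tested members, 28 were below 0, 16 had an unadjusted p under 0.05 and were lower, and 0 were higher (median -0.16), where 5.37% of all genes were lower at that p and 49.8% were above 0. FN1, fibronectin, read 91.81, 95.16 and 88.47 FPKM in C14R, 121.3, 106.2 and 102.7 in deletion cells and 102.3, 95.79 and 95.32 in WT (log2 difference -0.26, SE 0.06, adjusted p = 0.16). The 3 groups did not overlap, with WT in the middle and its lowest library close to the highest C14R library. The collagen COL5A1 (-0.26, SE 0.06) and the proteoglycan SDC4 (-0.25, SE 0.06) were of like size.

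Of 18 tested annexin and S100 genes, which bind calcium and membranes, with the galectin LGALS1 counted among them, 18 were below 0 and 10 were lower at an unadjusted p under 0.05 (median -0.18). Of all genes tested, 5.37% were lower at that p and 49.8% were above 0. S100A6 read 160.1, 163 and 163.9 FPKM in C14R and 196.5, 211.6 and 191.5 in deletion cells (-0.30, SE 0.08, adjusted p = 0.24). S100A11 read 53.35, 60.46 and 53 against 77.32, 72.76 and 72.9 (-0.41, SE 0.13, adjusted p = 0.29). In neither gene did the groups overlap. Without C14R replicate 1 the count under that p was 6, against 3.79% of all genes lower.

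Targets of YAP and TEAD, the factors that answer to cell tension and contact, were lower at an unadjusted p under 0.05 in 8 of 21 (median -0.16), and in 5 without C14R replicate 3. Of all genes tested, 5.37% were lower at that p with all libraries and 3.78% without C14R replicate 3. The cardiac ankyrin repeat gene ANKRD1 read 19.19, 18.06 and 17.66 FPKM in C14R and 30.15, 23.55 and 24.1 in deletion cells, with 28.56, 21.41 and 20.07 in WT (-0.47, SE 0.11, adjusted p = 0.16). CYR61 read 21.96, 22.43 and 18.48 against 30.87, 28.48 and 25.51 (-0.42, SE 0.11, adjusted p = 0.22). In ANKRD1 replicate 1 of both the WT and the deletion group stood well above its group. Both lists were also drawn up after values were seen, as was one of MHC class I presentation genes. Of these, 3 of 14 were lower at an unadjusted p under 0.05, against the same 5.37% (median -0.16). TAP1, the peptide transporter, was at -0.40 (SE 0.09, adjusted p = 0.16).

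The marker lists of the mesenchymal and noradrenergic states had medians of opposite sign. Of 13 mesenchymal markers 11 were below 0 (median -0.13), with VIM called and FN1 and ACTA2 lower at an unadjusted p under 0.05, while PRRX1 was higher. Of all genes tested, 5.37% were lower and 4.72% higher at that p, and 49.8% were above 0. ACTA2 read 56.91, 55.63 and 51.29 FPKM in C14R and 78.34, 73.52 and 66.12 in deletion cells (-0.40, SE 0.12, adjusted p = 0.28). The homeobox factor PRRX1 was at 0.21 (SE 0.10, adjusted p = 0.48). Of 12 noradrenergic markers 10 were above 0 (median 0.10). CHGA, a granule protein, read 130.7, 120.1 and 140.6 FPKM in C14R and 94.38, 114.1 and 111.9 in deletion cells (0.29, SE 0.08, adjusted p = 0.23).

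Neuronal genes leaned the same way as the noradrenergic markers, by small amounts. Of 22 neuronal markers, 5 were higher and 1 lower at an unadjusted p under 0.05 (median 0.05), against 4.72% and 5.37% of all genes. The microtubule protein DCX read 33.03, 31.76 and 31.46 FPKM in C14R and 28.31, 28.4 and 29.08 in deletion cells (0.16, SE 0.04, adjusted p = 0.22), and MAP2 read 40.58, 38.06 and 39.47 against 33.24, 35.32 and 35.39 (0.18, SE 0.05, adjusted p = 0.23). Both were apart between the groups. Among 11 glutamate and GABA receptor genes listed after values were seen, 4 were higher at an unadjusted p under 0.05, against 4.72% of all genes (median 0.17). That median was 0.07 without deletion replicate 1, 0.10 without C14R replicate 3 and 0.02 with no filter on low values. NPY and secretogranin II, SCG2 (-0.20, SE 0.05, adjusted p = 0.16), which like CHGA are stored in secretory granules, were lower in C14R. Of 14 tested noradrenergic and neuropeptide secretory genes, listed after values were seen, 8 were above 0 and 6 below (median 0.06). At an unadjusted p under 0.05, 4 of these were lower and 1 higher, against 5.37% and 4.72% of all genes.

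Genes of growth control split. Of 25 p53 targets, 25 were below 0 (median -0.15), 8 were lower at an unadjusted p under 0.05 and 15 did not overlap, against 5.37% and 10.9% of all genes, but none passed the adjusted test. CDKN1A, the p21 inhibitor of the cell cycle, read 116.2, 125.3 and 118.1 FPKM in C14R, 153.4, 151.6 and 140.8 in deletion cells and 126.1, 132.5 and 121.3 in WT (log2 difference -0.31, SE 0.09, adjusted p = 0.25). BTG2 read 30.14, 30.77 and 30.3 against 36.51, 34.86 and 32.86 (-0.19, SE 0.05, adjusted p = 0.22). Both were apart between C14R and deletion. Leaving out single libraries gave 6 to 8 members lower at an unadjusted p under 0.05, against 3.49% to 5.89% of all genes.

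Of 25 mitosis genes, 20 were above 0 (median 0.05) and 4 were higher at an unadjusted p under 0.05, against 49.8% and 4.72% of all genes. Among the 4 was TOP2A, which untangles DNA, with 96.35, 92.51 and 96.65 FPKM against 83.75, 86.06 and 87.02 (0.15, SE 0.06, adjusted p = 0.37). MKI67, the Ki-67 antigen, read 52.09, 50.06 and 51.58 against 45.7, 43.94 and 46.52 (0.17, SE 0.07, adjusted p = 0.45). In both genes the WT libraries overlapped C14R and lay above all deletion libraries. Without C14R replicate 1, deletion replicate 1 or deletion replicate 2 the count was 1, and it was 2 without C14R replicate 3. With single libraries left out, 389 to 682 of all 13424 genes were higher at that p. Of 29 DNA replication genes, 0 came under that p (median 0.05), against 10.1% of all genes.

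In the machinery that ZNHIT3 serves, the shares of genes lower at an unadjusted p under 0.05 were near the 5.37% of all genes, at 5.56% of assembly factors, 5.41% of snoRNA host genes and 3.77% of ribosome biogenesis genes. The box C/D core had a median of -0.02, with FBL at -0.05 (SE 0.10), NOP56 at 0.00 (SE 0.04), NOP58 at 0.05 (SE 0.06) and SNU13 at -0.10 (SE 0.08). Of 18 assembly and transport factors, 1 came under an unadjusted p of 0.05: RUVBL1, with 78.78, 77.95 and 75.9 FPKM in C14R and 82.93, 84.48 and 83.14 in deletion cells (-0.11, SE 0.04, adjusted p = 0.34). The H/ACA core had a median of -0.06, led by NHP2 at -0.12 (SE 0.08) and NOP10 at -0.12 (SE 0.08). Among 5 other HIT zinc-finger genes, ZNHIT1 was lowest at -0.15 (SE 0.06, adjusted p = 0.41). Of 37 snoRNA host genes 2 were lower (median -0.03), and of 53 ribosome biogenesis genes 2 were lower (median -0.01).

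Most snoRNAs gave no value to compare. The 269 box C/D snoRNA symbols included 263 with 0 in each of the 6 libraries and 5 that were tested. The 107 box H/ACA symbols included 99 with 0 and 8 tested. None of these passed limma's adjusted test, and 1 box C/D symbol, SNORD3D, had an unadjusted p under 0.05 (20.54, 0 and 0 FPKM in C14R against 19.59, 6.451 and 15.36, which overlapped). SNORD17 read 984.4, 1162 and 1151 FPKM in C14R and 1079, 1005 and 1046 in deletion cells (log2 difference 0.07, SE 0.15), and the groups overlapped. SNORA74A read 275.4, 429.9 and 435.1 against 282.6, 260.6 and 303.4 (0.40, SE 0.27, adjusted p = 0.62), with C14R replicate 1 inside the deletion range. Of the 8 box H/ACA snoRNAs, 7 were above 0 (median 0.53), none had an unadjusted p under 0.05, and in 2 the C14R libraries lay above all deletion libraries, against 10.5% of all genes. SNORA53 was 1 of these, with 189.2, 177.6 and 229.7 FPKM against 172.5, 106.3 and 149.9 (0.49, SE 0.23, adjusted p = 0.49). The 11 tested small Cajal body RNAs had a median of -0.10, and SCARNA7 read 1926, 1951 and 1892 against 2013, 2093 and 2125 (-0.11, SE 0.06, adjusted p = 0.55).

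Ribosomal protein genes were slightly lower together. Of 79, 76 were below 0, 50 did not overlap and 8 were lower at an unadjusted p under 0.05 (median -0.07), against 10.9% and 5.37% of all genes. RPL30 read 1005, 1062 and 1051 FPKM in C14R and 1180, 1244 and 1151 in deletion cells (-0.20, SE 0.06, adjusted p = 0.30). The count of 8 was 5 without C14R replicate 1 or deletion replicate 1. It was 4 without replicate 3 of either group and 3 without deletion replicate 2. With single libraries left out, 3.49% to 5.89% of all genes were lower at that p. After quantile normalization 41 of 79 were below 0 and 0 came under that p, and with the length trend removed 1 did. The median of the ribosomal list was 0.00 after quantile normalization and -0.03 when small RNA genes were left out and the rest rescaled, a scaling that moved the median of all genes to 0.04, so its size depended on the scaling. Nuclear-encoded respiratory chain genes were listed after values were seen. At an unadjusted p under 0.05, 19 of 76 were lower and 1 higher (median -0.11), against 5.37% and 4.72% of all genes. NDUFS5 read 355.3, 376.2 and 378.8 against 416.4, 397.8 and 423.1 (-0.16, SE 0.04, adjusted p = 0.25). The lower count of this list was 5 without C14R replicate 1, against 3.79% of all genes. It was 11, 12 and 8 without deletion replicates 1, 2 and 3, against 3.49%, 4.6% and 4.88% of all genes.

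Zinc-finger genes with a ZNF number were also listed afterwards. At an unadjusted p under 0.05, 47 of 476 were higher (9.87%) and 7 lower (median 0.04), against 4.72% and 5.37% of all genes. ZNF519 read 6.846, 6.284 and 6.651 FPKM in C14R and 4.813, 5.434 and 4.83 in deletion cells (0.33, SE 0.09, adjusted p = 0.23). Without deletion replicate 1 the higher count was 14, where 389 of all 13424 genes were higher at that p, a like share. It was 17 without C14R replicate 1 (405 of all genes) and 21 without C14R replicate 3 (467 of all genes).

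The differences varied with the base content of transcripts. GC content, known for 97.3% of the genes, had a Spearman correlation of -0.33 with the log2 difference across genes, which are not independent. The median difference ran from 0.04 in the lowest GC decile to -0.07 in the highest. By library, C14R replicates 1 and 3 were low in GC-rich genes (-0.08 and -0.05 in the highest decile) and deletion replicates 1 and 3 were high (0.06 and 0.04), whereas C14R replicate 2 was high as well (0.03) and deletion replicate 2 was at 0.00. Removal of the GC trend was an alternative chosen after the data were seen. With it, 6.57% of all genes were lower at an unadjusted p under 0.05, against 5.37% before. The actin list then had a median of -0.15 with 25 members lower at that p, and the matrix list a median of -0.15. The p53 targets had a median of -0.12 with 13 members lower at that p. Medians were -0.07 for the ribosomal proteins and 0.04 for the ZNF genes. Among the 8 called genes, VIM (limma adjusted p = 0.062) and NPY (0.068) lost their calls with that trend removed, and the other 6 kept theirs.

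**Figure D4:**
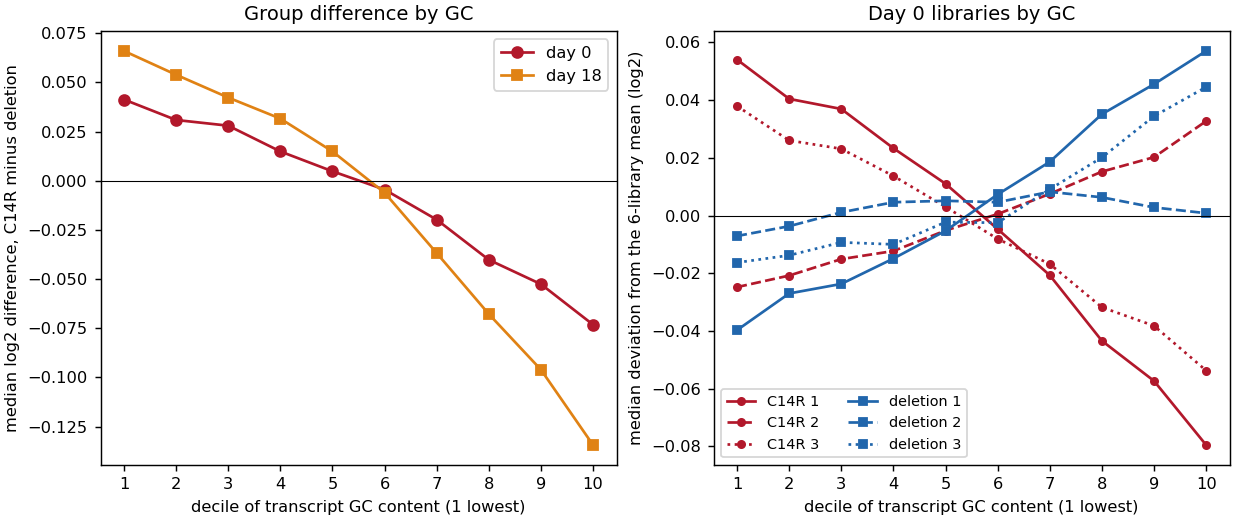
Left, median log2 difference, C14R minus deletion, by decile of transcript GC content at day 0 and day 18. Right, median deviation of each day 0 library from the mean of the 6 libraries in the same deciles, with C14R in red and deletion in blue. C14R replicate 2 runs against the other C14R libraries.

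Of the 8 genes called at day 0, 5 had a difference of the opposite sign at day 18. The comparison at day 18 uses other libraries, and 4 genes passed there (0.0298%, with 1498 at an unadjusted p under 0.05, 11.2%). Over all genes tested, log2 differences at day 0 and day 18 had a Pearson correlation of 0.25, given as a description. Of the 1355 genes at an unadjusted p under 0.05 at day 0, 65.8% had the same sign at day 18, against 61.6% of all genes tested. ZNHIT3 kept its direction and stood at 1.10 at day 18 (SE 0.07). ACTG2 was absent or nearly so at day 18, listed at 0 in all but 1 of the 6 libraries and at 0.1177 FPKM in deletion replicate 2, so it gives no comparison there. NPY read 674.4, 594.6 and 640.2 FPKM in C14R and 645.1, 559.8 and 636 in deletion cells at day 18 (0.05, SE 0.07), and the groups overlapped.

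The change of the difference between days was tested directly, and 7 genes passed (0.0521%, with 843 at an unadjusted p under 0.05, 6.28%). FSTL5 stood at 24.06, 22.39 and 22.08 FPKM in C14R and 24, 25.28 and 25.87 in deletion cells, where its difference was -0.13 (SE 0.06), and the shift of -0.51 passed (adjusted p = 0.04). VIM stood at 54.3, 52.71 and 55.19 FPKM against 51.03, 48.74 and 48.79 at day 18, a difference of 0.12 (SE 0.04), and the shift of 0.34 passed (adjusted p = 0.021). APOM read 2.433, 1.836 and 2.143 against 2.047, 1.536 and 1.345 at day 18, and the shift of 0.98 passed (adjusted p = 0.04). For ACTG2 (adjusted p = 0.25), NPY (0.25) and FGF14-AS2 (0.51) a change between days was not shown.

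**Figure D5:**
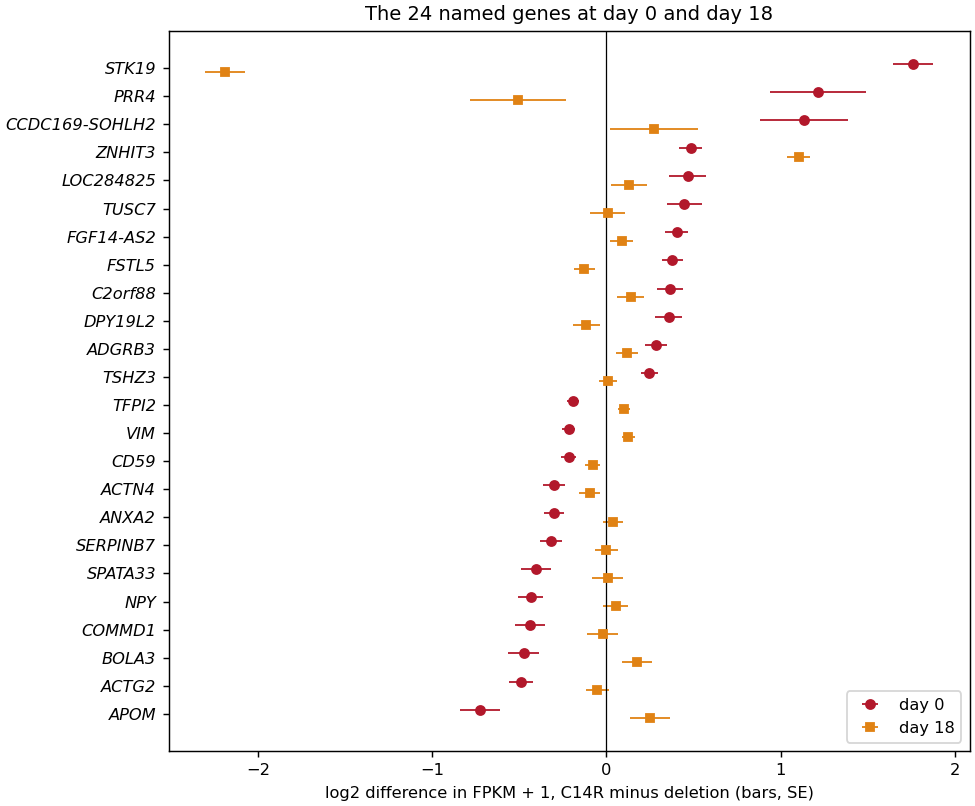
Log2 difference, C14R minus deletion, with its SE for the 24 named genes at day 0 (red circles) and day 18 (orange squares), ordered by the day 0 value. STK19 has opposite values of 1.76 and -2.19, ZNHIT3 is higher at day 18, and most others lie nearer to 0 at day 18.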

How the data were processed

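The authors deposited FPKM, named so in the title of the table, for 26372 gene symbols in 18 libraries of SH-SY5Y cells. Per the labels, Ribo-Zero took ribosomal RNA out of total RNA before NEBNext Ultra library preparation. The submitters' processing notes name TopHat2, STAR, Cufflinks 2.2.1 and hg38, with no role or order. Whether libraries were scaled against each other and whether strand was used are not given in the sources used here. The filter is the mean of 1 FPKM over the 6 libraries, which 156 of the genes kept reach in only 1 group. Of the genes tested, 20 are listed at 0 in at least 1 of the 6 libraries. Those next to the limit were LOC100289495 with a mean of 1.0011 FPKM and ARHGAP8 with 0.99978.

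Values were taken to log2(FPKM + 1) as deposited, a pseudocount of 1, without rescaling. Linear models of the 6 group means over all 18 libraries, which share 1 estimate of spread, were fitted with limma 3.58.1 in R 4.3.3 (empirical Bayes, variance allowed to follow the mean level), with Benjamini-Hochberg adjustment and a threshold of 0.05. The code was tested on simulated data. Depth is known only in relative terms, and the number of libraries limits the precision.

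The rule named ZNHIT3, then every gene past the threshold, then, to 24 genes, those with the smallest p and separated libraries, alternately from each direction, and up to 4 members of each list by p with its most abundant member. The genes compared and the gene lists were chosen with earlier results of these data known. The lists said to be drawn up after values were seen were added with the values of this comparison in view. Symbols were matched to GENCODE release 29, 24924 of 26372, of which 1126 through older symbols. Alternatives were other pseudocounts, filters, scalings, weights and fits, a replicate block, removal of GC or length trends (chosen after seeing the data) and leaving out each library.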

Additional observations from a re-analysis of the deposited data

Results flagged for a closer look

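For 7 genes the difference between C14R and deletion cells was itself different at day 18 and day 0 by limma's test of the interaction, at an adjusted p under 0.05. The values are day 18 minus day 0 on the log2(FPKM + 1) scale. ZNHIT3 differed by 0.6193, with 653.2 FPKM in C14R and 301.5 in deletion cells at day 18. STK19 differed by -3.9548 and SNORA74B, a box H/ACA snoRNA listed at 0 in every C14R library at day 18, by -4.4012. APOM differed by 0.9796, FSTL5 by -0.5069, VIM by 0.3405 and TFPI2 by 0.2915. TFPI2 stood at 185.2 FPKM in C14R and 172.8 in deletion cells at day 18, the reverse of its order at day 0, where its own difference did not pass.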

How the results depend on the processing

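The count of 8 genes at day 0 was 5 with a mean of at least 5 FPKM, 94 with array weights, 31 from the 9 day 0 libraries alone, 5 with the transcript length trend removed (chosen after seeing the data) and 1 with a log2 difference of at least 1 required. Leaving out single libraries gave 1 (without C14R replicate 3) to 10 (without C14R replicate 2), and 2 without deletion replicate 3. It was 12 with the GC trend removed and 12 from the 6 libraries alone, of which 6 and 5 were among the 8. The 7 genes of the change between days became 3 with a mean of at least 5 FPKM, 2 with small RNA genes left out, 4 without a variance trend, 12 with array weights and 2 with a log2 difference of at least 1 required, and 2 to 6 without single libraries. For ZNHIT3 the difference ran from 0.4601 (without deletion replicate 3, adjusted p = 0.054) to 0.5033 (without deletion replicate 2) over the libraries left out, and was 0.4908 without C14R replicate 3 (adjusted p = 0.062). The cause of these shifts was not tested. Of the 24 named genes, 0 changed direction under any alternative. Their C14R and deletion libraries do not overlap, so most alternatives, such as leaving out a library, could not turn a sign.

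Over all genes tested, replicate numbers gave no sign of pairing: deviations of same-numbered C14R and deletion libraries correlated at -0.192, -0.037 and -0.039, and 0 of 3 C14R libraries correlated best with their own number. Single small RNAs did go with the number, as SNORD3C was highest in replicate 2 of C14R (192.8 FPKM), WT (212.3) and deletion (193.5). SNORD3A took 52.9%, 58.6% and 51.5% of the FPKM sum in replicate 1 of C14R, WT and deletion. Its shares in replicate 2 were 7.55%, 7.69% and 6.87%, and in replicate 3 they differed, at 57.3%, 8.63% and 18.6%. With the replicate number as a block, 6 genes passed at day 0, 5 of them among the 8, and 5 passed for the change between days. ZNHIT3 stayed at 0.4854 (limma adjusted p = 0.0077), while FSTL5, FGF14-AS2 and VIM each had an adjusted p of 0.11. FPKM without read counts gives no counting error for low genes such as STK19 and APOM.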
